A study of Mus musculus with 9 samples.

Results

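The transcripts of 36 immune genes were followed in cultured pancreatic islets from outbred ICR mice that had been kept for 3 days at 3 glucose concentrations. The 36 genes were chosen by name from the interferon, antigen presentation and NF-kB pathways, and each symbol was tied to 1 Ensembl identifier among the 22048 genes of the count table. They fall into 5 groups by role, which are 7 genes of class I antigen presentation, 15 of interferon signalling and its targets, 5 of the NF-kB pathway, 6 chemokines and cytokines, and 3 secreted defence proteins.

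The series set islets in standard RPMI medium with 11.8 mM glucose, labelled as control, beside islets in 20 mM and 35 mM glucose, which its design text calls hyperglycemic and extremely hyperglycemic. All islets were wild type, came from 9 mice and were kept in serum-containing medium, and the labels used here name no osmotic control. The treatment text gives 25 mM as the highest concentration, whereas titles, characteristics and design give 35 mM, which was followed. Each concentration had 3 libraries made by CEL-Seq2, in which primers carrying a barcode read out transcripts from their 3′ ends. Each library was the sum of 3 barcoded sub-libraries and held 3228648 to 4559561 gene counts, with 13366 to 13923 genes detected. Nothing in the labels ties a library to a mouse of its own. The p-values therefore reflect the spread between these libraries alone, and that spread may be technical.

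Cells sense interferons through receptors that activate JAK kinases and STAT proteins. A complex that holds STAT2 and IRF9 then binds a DNA element called ISRE, other STAT pairs bind an element called GAS, and the genes switched on include the machinery that loads peptides on class I molecules. NF-kB is a pair of DNA-binding proteins held in the cytoplasm by inhibitors such as the product of Nfkbia, and on release it switches on chemokines, cytokines and its own inhibitors. In islets these pathways are known from work on type 1 diabetes, in which beta cells display class I molecules and respond to interferons and interleukin 1.

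The libraries carried the markers of islets, with the insulin genes Ins1 and Ins2 taking 48.3% to 57.5% of the gene counts. Other cell types were present too, among them macrophages and other immune cells. None of their 20 markers was at 0 in every library, though Ciita was at 0 in 5 or more. The 20 markers summed to 189 to 222 CPM at 11.8 mM, 159 to 196 CPM at 20 mM and 133 to 245 CPM at 35 mM. CPM are counts scaled to a library total of 1000000, after adjustment of library sizes by TMM, and since the method reads 1 end of each transcript they were not divided by transcript length. The 35 mM library of replicate 1 stood apart in class II and B cell genes, with 5 class II genes summing to 96.6 CPM, against 15.1 to 31.2 CPM in the other libraries. Its 15 other immune markers, at 149 CPM, lay within the range of the other libraries, 118 to 196 CPM. Its Cd74, which encodes the invariant chain of class II molecules, stood at 64.1 CPM, against 9.87 to 18.2 CPM in the other libraries, and Ms4a1, a B cell marker, had reads in that library alone. Of 10 lymphocyte markers found, Cd3e, Cd3g, Cd8a and Nkg7 were at 0 in all 9 libraries.

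Class I presentation dominated the set. Of 24594 reads over the 36 genes and 9 libraries, H2-D1, the heavy chain of a class I molecule, took 29.8%, and Tapbp, which encodes tapasin, the bridge between class I molecules and the peptide transporter, took 25.7%. B2m, the class I light chain, took 15.0% and H2-K1, a second heavy chain, 6.70%, so that these 4 genes held 77.3% of the reads. The highest members of the other groups were below H2-D1 in every library. They were Irf1 at 8.24 to 18.5 CPM, Nfkbia at 24.5 to 42.4 CPM, Ccl2 at 2.04 to 10.9 CPM and Lcn2 at 11.6 to 81.6 CPM over all libraries.

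**Figure D1:**
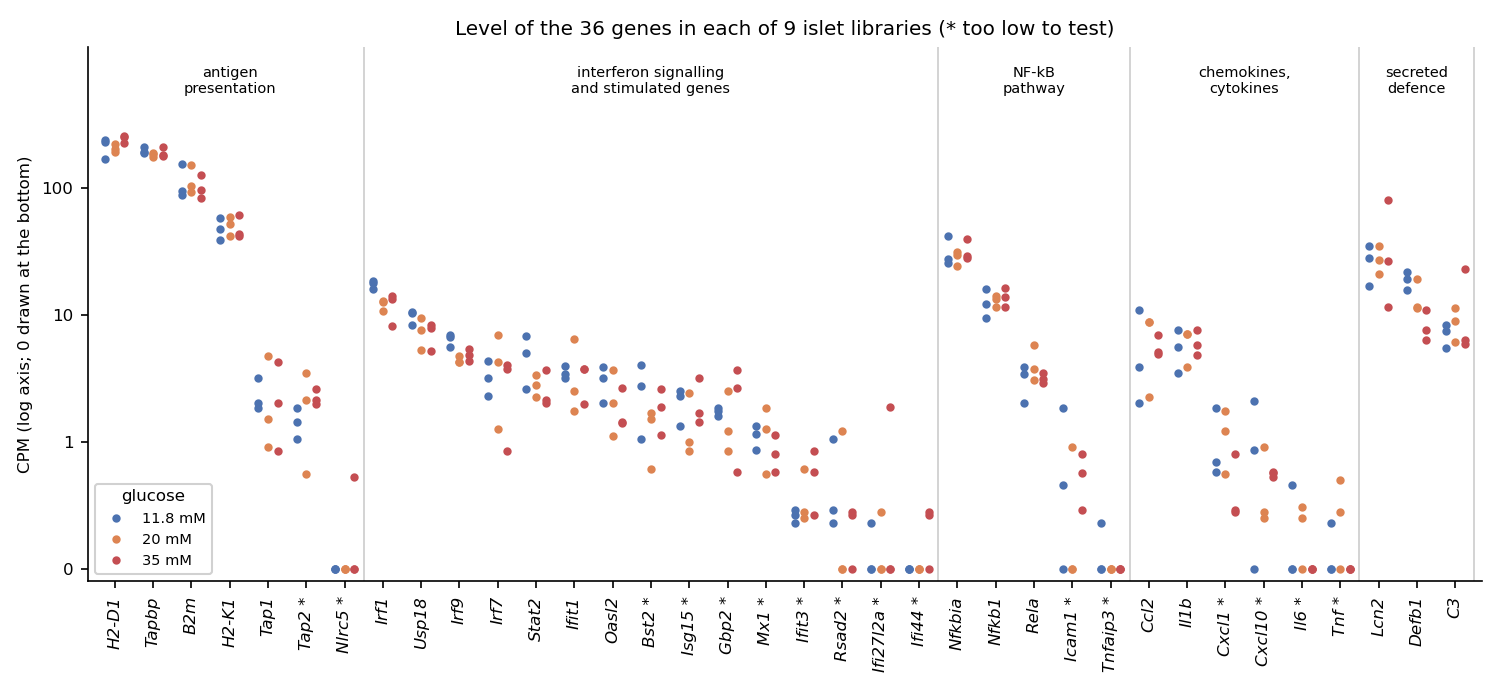
The level of each of the 36 genes in CPM on a log axis, with 1 point per library coloured by glucose and a count of 0 drawn at the bottom; stars mark the 16 genes too low to test. H2-D1, Tapbp and B2m stand above all others, and most classic interferon targets and inflammatory cytokines sit near or under a few CPM.

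Of the 36 genes, 20 passed the expression filter and 16 were too low to test. Among those too low were Tap2, the partner of Tap1 in the peptide transporter, and Nlrc5, the activator of class I genes. The interferon targets too low to test were Isg15, a ubiquitin-like modifier, Ifit3, Mx1, an antiviral GTPase, Rsad2 (viperin), Bst2 (tetherin), Ifi44, Ifi27l2a and Gbp2, a guanylate-binding protein. From the NF-kB pathway they were Tnfaip3, a deubiquitinase that restrains NF-kB, and the adhesion molecule Icam1, and from the secreted signals the chemokines Cxcl1 and Cxcl10 and the cytokines Il6 and Tnf. Their totals over all 9 libraries ran from 1 read for Tnfaip3 to 64 reads for Bst2 and Tap2, and none had more than 14 reads in 1 library.

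Low did not always mean undetected, since 7 of these 16 genes had a read in every library. The other end was held by Tnfaip3, with 1 read at 11.8 mM, Nlrc5, whose 2 reads both came from the 35 mM library of replicate 1, Ifi44 with 2 reads, and Il6 and Tnf with 4 reads each. Ifi27l2a had 9 reads, of which 7 lay in the 35 mM library of replicate 1. A count of 0 in a library allows up to 3 reads, which is 0.694 to 0.924 CPM in these libraries, and this limit covers counting error only. When all genes were fitted without the filter, none of the 16 was called at any comparison by edgeR's quasi-likelihood test, none had an unadjusted p under 0.05, and the lowest p was 0.0868, for Ifi27l2a.

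The promoters of the set were read for the elements named above, because these elements are how the pathways reach their genes. RefSeq promoters of GRCm38.p6 were found for 28 of the 36 genes, 32 starts in all, and the 250 bases before each start were searched on both strands. No promoter was found for Tap2, Nlrc5, Usp18, Mx1, Ifi27l2a, Nfkb1, Ccl2 and Defb1, so these genes were not searched. ISRE was searched as GAAA, any 2 bases and GAAA, GAS as TTC, any 3 bases and GAA, and the NF-kB element as GGG, any 2 bases and TTTCC. No matches overlapped in the promoters printed. ISRE matched in 9 of 32 promoters, 28.1%, against 2.98% of all 32851 promoters, GAS in 3, 9.38% against 7.02%, and the NF-kB element in 5, 15.6% against 1.41%. The 4 promoters below are those of a class I gene and of interferon pathway members whose levels are given further on, written 5′ to 3′ on the strand of the gene with the matches in capitals.
B2m: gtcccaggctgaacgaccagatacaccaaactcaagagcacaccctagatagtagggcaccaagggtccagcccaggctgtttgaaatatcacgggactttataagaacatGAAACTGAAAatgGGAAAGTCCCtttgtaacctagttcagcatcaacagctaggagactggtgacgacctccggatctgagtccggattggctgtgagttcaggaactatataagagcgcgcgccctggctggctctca
Irf1: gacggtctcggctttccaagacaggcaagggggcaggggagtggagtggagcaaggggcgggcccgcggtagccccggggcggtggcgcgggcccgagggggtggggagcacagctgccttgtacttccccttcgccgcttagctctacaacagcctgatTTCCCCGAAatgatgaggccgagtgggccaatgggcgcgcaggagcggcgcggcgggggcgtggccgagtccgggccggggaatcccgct
Stat2: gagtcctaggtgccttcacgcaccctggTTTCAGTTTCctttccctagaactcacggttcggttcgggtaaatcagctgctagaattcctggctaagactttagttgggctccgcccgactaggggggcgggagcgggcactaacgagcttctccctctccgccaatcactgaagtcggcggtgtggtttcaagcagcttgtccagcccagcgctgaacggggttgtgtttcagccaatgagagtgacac
Ifit1: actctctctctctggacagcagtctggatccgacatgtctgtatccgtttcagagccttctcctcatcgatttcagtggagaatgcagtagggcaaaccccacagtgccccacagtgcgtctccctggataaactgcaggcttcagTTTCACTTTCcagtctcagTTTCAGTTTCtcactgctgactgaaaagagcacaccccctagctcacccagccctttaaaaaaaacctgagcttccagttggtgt
The B2m promoter (chr2:122147437-122147686, plus strand) holds an ISRE match at -139 to -130 from the start and an NF-kB match at -126 to -117. The first of the 2 Irf1 starts in the table (chr11:53769764-53770013, plus strand) has a GAS match at -90 to -82, and the second, not printed, has no match of the 3 elements. The promoter of Stat2 (chr10:128270248-128270497, plus strand) holds an ISRE match at -222 to -213, and that of Ifit1 (chr19:34640639-34640888, plus strand) ISRE matches at -104 to -95 and -85 to -76.

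A match in the promoter went with very different levels in these islets. ISRE matches were found in B2m, Stat2, Isg15, Ifit1, Ifit3, Rsad2, Bst2, Gbp2 and Cxcl10. B2m had 84.5 to 156 CPM, and the other 8 lay between 0 and 6.93 CPM in every library. The NF-kB element was matched in B2m, Nfkbia, Tnfaip3, Cxcl1 and Il6, of which the last 3 had at most 1.87 CPM in any library. GAS matched in Irf1, Bst2 and Icam1.

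Few members differed with glucose beyond the spread between libraries. At 35 against 11.8 mM, 1 of the 20 tested genes was called, the fall of Defb1, against 0.863% of all 9739 genes tested (61 rises and 23 falls, falls alone 0.236%). Calls needed an adjusted p under 0.05 (Benjamini-Hochberg) in the quasi-likelihood test of edgeR. At 20 against 11.8 mM none of the 20 was called, against 0.185% of all genes, and at 35 against 20 mM none, against 0.0308%. DESeq2 on the same genes also called none of the 20 in these 2 comparisons. Members with an unadjusted p under 0.05 numbered 3 of 20 at 35 against 11.8 mM (Defb1, Irf1 and Stat2; 10.5% of all genes), 1 at 20 against 11.8 mM (Irf1; 7.97%) and 1 at 35 against 20 mM (Defb1; 5.29%).

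**Figure D2:**
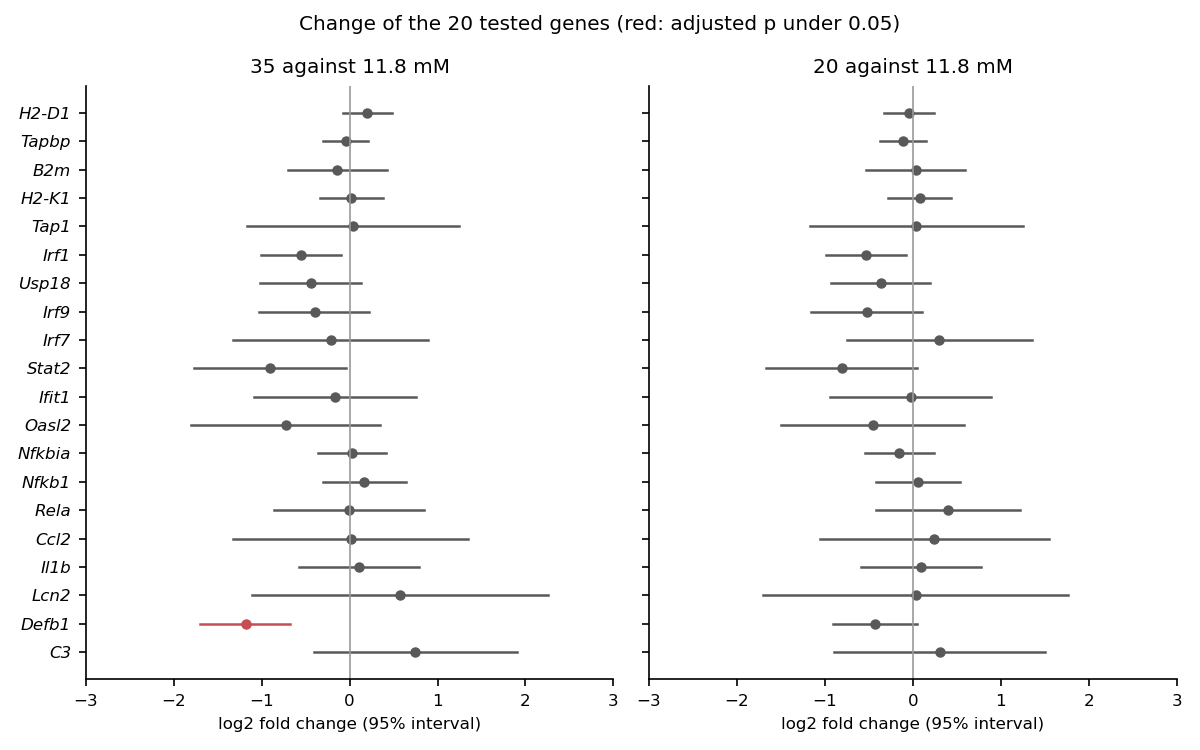
The log2 fold change of the 20 tested genes with its 95% interval, at 35 against 11.8 mM on the left and 20 against 11.8 mM on the right; both panels share the 11.8 mM libraries. On the left the interval of Defb1, in red, lies furthest from 0, while on the right it includes 0. Intervals of H2-D1, Tapbp and H2-K1 are narrow and include 0, and those of the 7 interferon genes on the left all centre below 0.

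The median log2 fold change of the 20 tested members was -0.02 at 35 against 11.8 mM, and that of all genes tested was -0.00. Libraries of the 2 concentrations did not overlap for 4 members (Defb1, Irf1, Irf9 and Usp18), and for 14.9% of all genes. At 20 against 11.8 mM the median was 0.00 and 3 members did not overlap (Irf1, Irf9 and Tapbp), against 12.8% of all genes. At 35 against 20 mM it was -0.04 and 2 members did not overlap (Defb1 and H2-D1), against 11.9%.

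Of the 5 tested genes of class I presentation none was called in any comparison by edgeR or DESeq2, none had an unadjusted p under 0.05, and their libraries mostly overlapped. H2-D1 (chr17:35262730-35267499 of GRCm38, plus strand) had 240, 231 and 170 CPM in the 3 libraries at 11.8 mM, 203, 223 and 195 CPM at 20 mM, and 253, 227 and 257 CPM at 35 mM. The 35 mM libraries all lay above those at 20 mM, while 2 of the 11.8 mM libraries lay within the 35 mM range. Its log2 fold change was 0.20 ± 0.14 (SE) at 35 against 11.8 mM (adjusted p = 0.676, edgeR), a fold of 1.15 with a 95% interval of 0.949 to 1.40. At 20 against 11.8 mM the fold was 0.970, with an interval of 0.799 to 1.18.

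Tapbp varied little, with 213, 194 and 190 CPM at 11.8 mM, 177, 189 and 186 CPM at 20 mM, and 212, 184 and 181 CPM at 35 mM. The 20 mM libraries lay just under all 11.8 mM libraries, and its fold was 0.968 at 35 against 11.8 mM (95% interval 0.810 to 1.16) and 0.924 at 20 against 11.8 mM (0.773 to 1.11). H2-K1 averaged 49.3 ± 11.0 CPM at 35 mM and 48.5 ± 9.77 CPM at 11.8 mM (SD, n = 3 each), with a fold of 1.01 and an interval of 0.792 to 1.30. B2m was more spread, with 89.0, 156 and 95.8 CPM at 11.8 mM, 152, 105 and 93.3 CPM at 20 mM, and 97.9, 84.5 and 128 CPM at 35 mM. Each concentration held 1 B2m library well above its other 2, and the interval of the fold at 35 against 11.8 mM ran from 0.613 to 1.34. Intervals of the low gene Tap1, part of the peptide transporter, were wider still, from 0.444 to 2.38 at 35 against 11.8 mM.

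The class I group as a whole, 7 genes with 5 tested, had a median log2 fold change of 0.02 at 35 against 11.8 mM and 0.03 at 20 against 11.8 mM. Its summed level was 498 to 643 CPM at 11.8 mM, 522 to 594 CPM at 20 mM and 544 to 632 CPM at 35 mM. H2-D1, H2-K1, Tapbp, Tap1 and Tap2 lie in the major histocompatibility region of chromosome 17, where class I heavy chains are near copies of one another. Reads that did not align to a single place were 12.6% to 22.6% of the counted reads and were not assigned to genes, so that H2-D1 and H2-K1 may be undercounted. Exons of Tapbp overlap Zbtb22 on the same strand and those of Tap1 overlap Psmb9 on the opposite strand, and the counting strand is not given in the sources used here.

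Of 21 other genes of class I presentation, all found and 16 tested, none was called in any comparison by edgeR or DESeq2. By edgeR, 2 had an unadjusted p under 0.05 at 35 against 11.8 mM, against 10.5% of all genes tested. At 20 against 11.8 mM there were also 2, against 7.97% of all genes. The 2 with the smallest p were Psmb8, an immunoproteasome subunit, and Pdia3, a chaperone of the peptide-loading complex. Psmb8 averaged 11.2 ± 2.83 CPM at 35 mM and 18.0 ± 3.49 CPM at 11.8 mM (SD, n = 3 each; log2 fold change -0.68 ± 0.24, adjusted p = 0.242, edgeR). Pdia3 averaged 140 ± 4.73 CPM at 20 mM and 111 ± 8.89 CPM at 11.8 mM (log2 fold change 0.34 ± 0.13, adjusted p = 0.456, edgeR). Exons of Psmb8, Pdia3, Stat3 and Tlr3 overlap genes on the opposite strand.

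The tested interferon signalling genes mostly had lower values at 20 and 35 mM, though none of them was called by edgeR or DESeq2. Of 15 genes, 7 were tested, and at 35 against 11.8 mM all 7 had a negative log2 fold change, with a median of -0.44 against -0.00 for all genes tested. At 20 against 11.8 mM 6 of the 7 were negative, with a median of -0.46, and these comparisons share the 11.8 mM libraries. With 1 library left out at a time, 5 to 7 of the 7 were negative at 35 against 11.8 mM, and the median ran from -0.57 to -0.40. At 35 against 20 mM the median was -0.10. The summed level of the 15 genes was 55.1 to 59.7 CPM at 11.8 mM, 38.7 to 50.8 CPM at 20 mM and 38.6 to 50.2 CPM at 35 mM. The genes too low to test went both ways. At 35 mM mean CPM was above that at 11.8 mM for Isg15, Ifit3, Ifi44, Ifi27l2a and Gbp2, and below it for Mx1, Rsad2 and Bst2. At 20 mM it was above for Ifit3, Mx1 and Ifi27l2a, and below for Isg15, Rsad2, Bst2 and Gbp2.

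Irf1 (chr11:53770014-53778374, plus strand), a transcription factor induced by interferon and the most abundant of the group, had 16.0, 18.5 and 18.1 CPM at 11.8 mM, 12.9, 10.9 and 12.7 CPM at 20 mM, and 13.4, 14.2 and 8.24 CPM at 35 mM. All 6 libraries at the higher concentrations lay below all 3 at 11.8 mM. Its log2 fold change was -0.55 ± 0.22 (SE) at 35 against 11.8 mM (unadjusted p = 0.0190, adjusted p = 0.351, edgeR) and -0.53 ± 0.22 at 20 against 11.8 mM (unadjusted p = 0.0230, adjusted p = 0.507). At 35 against 11.8 mM it was -0.34 (unadjusted p = 0.155) without the 35 mM library of replicate 3, and -0.17 (unadjusted p = 0.540) with the third sub-library of each library left out. Exons of Irf1 overlap those of Gm17334 on the opposite strand.

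Stat2 (chr10:128270559-128292849, plus strand), a subunit of the complex that binds ISRE, had 6.93, 5.09 and 2.62 CPM at 11.8 mM, 3.39, 2.27 and 2.82 CPM at 20 mM, and 2.15, 2.03 and 3.69 CPM at 35 mM. The lowest 11.8 mM library lay within the range of the other concentrations. The log2 fold change was -0.90 ± 0.42 at 35 against 11.8 mM (unadjusted p = 0.0402, adjusted p = 0.447, edgeR) and -0.80 ± 0.42 at 20 against 11.8 mM (unadjusted p = 0.0622, adjusted p = 0.649). Without the 11.8 mM library of replicate 1 the value at 35 against 11.8 mM was -0.58 (unadjusted p = 0.246).

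Irf9, the DNA-binding subunit of the same complex, had 5.60, 6.94 and 6.70 CPM at 11.8 mM, 4.31, 4.30 and 4.79 CPM at 20 mM, and 4.83, 4.36 and 5.40 CPM at 35 mM. The 11.8 mM libraries were again above all others, and the log2 fold change was -0.40 ± 0.31 at 35 against 11.8 mM (adjusted p = 0.722, edgeR) and -0.52 ± 0.31 at 20 against 11.8 mM (adjusted p = 0.713). Exons of Irf9 overlap Rnf31 on the same strand, so its reads are uncertain. Usp18, an enzyme that removes Isg15 from proteins and dampens the type I interferon receptor, averaged 7.17 ± 1.69 CPM at 35 mM and 9.83 ± 1.30 CPM at 11.8 mM (SD, n = 3 each; log2 fold change -0.44 ± 0.28, adjusted p = 0.637, edgeR). Its highest 35 mM library, at 8.32 CPM, lay just below its lowest 11.8 mM library, at 8.33 CPM, while those at 20 mM overlapped them. Exons of Usp18 overlap Gm44148 on the opposite strand.

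The other 3 tested members, Irf7, a regulator of interferon genes, Ifit1, an antiviral RNA-binding protein, and Oasl2, of the oligoadenylate synthetase family, had log2 fold changes of -0.21, -0.16 and -0.72 at 35 against 11.8 mM. Each had fewer than 10 CPM in every library, and their libraries overlapped. For Ifit1 the 95% interval of the fold at 35 against 11.8 mM ran from 0.470 to 1.69. Exons of Irf7 overlap Phrf1 on the opposite strand.

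**Figure D3:**
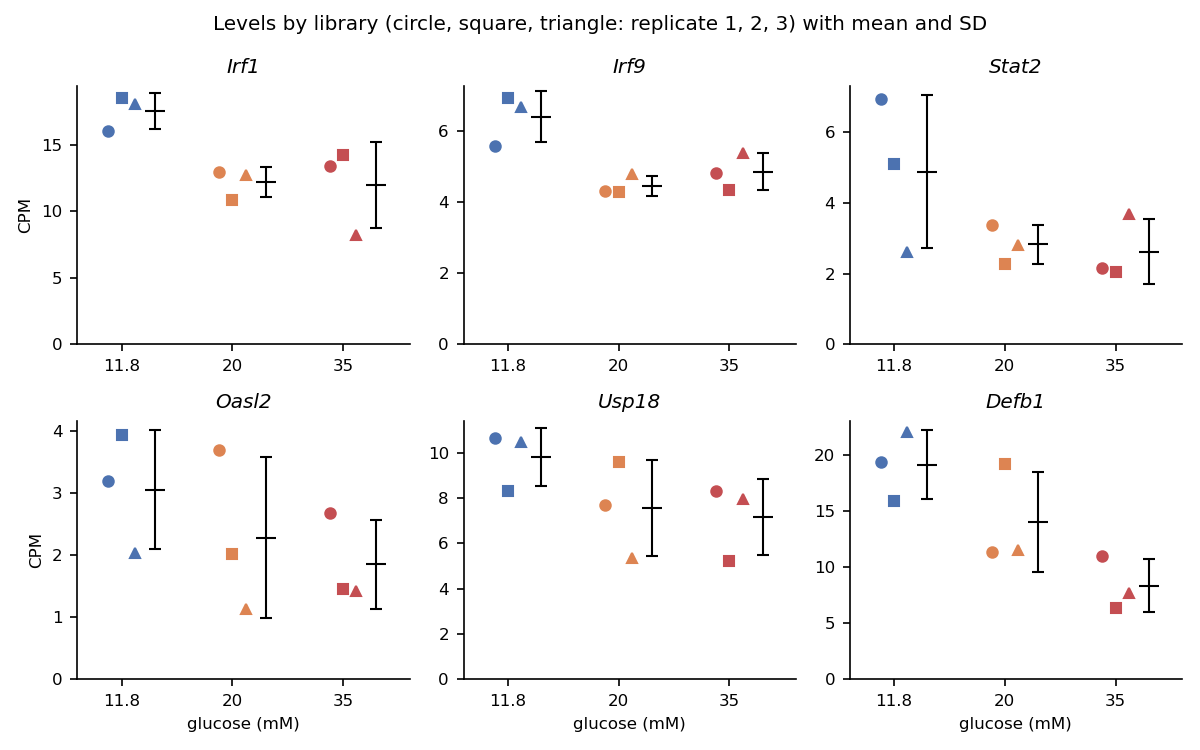
The level in CPM of Irf1, Irf9, Stat2, Oasl2, Usp18 and Defb1 by glucose, with 1 symbol per library and the mean and SD of 3 libraries beside them. For Irf1 and Irf9 all 11.8 mM libraries lie above the others, and for Defb1 all 35 mM libraries lie below those at 11.8 and 20 mM.

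Among the wider pathway, 20 genes for interferon receptors and their signal transducers were all found and 15 tested, and none was called by edgeR or DESeq2. By edgeR, 3 had an unadjusted p under 0.05 at 35 against 11.8 mM (10.5% of all genes) and 2 at 20 against 11.8 mM (7.97%). The summed level of the 20 genes was 370 to 399 CPM at 11.8 mM, 330 to 359 CPM at 20 mM and 327 to 338 CPM at 35 mM. This sum, too, was not tested, and abundant genes weigh most in it. Stat3, which responds to cytokines of the interleukin 6 family, averaged 46.6 ± 1.16 CPM at 35 mM and 59.4 ± 5.56 CPM at 11.8 mM (SD, n = 3 each; log2 fold change -0.35 ± 0.14, adjusted p = 0.351, edgeR).

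Of 57 symbols listed for further interferon-stimulated genes, aliases included, 54 were found and 23 tested. Of these, 1 was called by edgeR, the rise of Shisa5 at 35 against 11.8 mM, against 0.863% of all genes tested (61 rises and 23 falls). This gene encodes a membrane protein of the endoplasmic reticulum. Shisa5 had 51.4, 50.0 and 44.0 CPM at 11.8 mM, 60.0, 54.6 and 68.2 CPM at 20 mM, and 79.7, 74.3 and 82.4 CPM at 35 mM. Every concentration lay above the one below it without overlap, and the log2 fold change at 35 against 11.8 mM was 0.70 ± 0.14 (adjusted p = 0.00653, edgeR). This call was lost without the 11.8 mM library of replicate 3 (adjusted p = 0.0569) and with the third sub-library of each library left out (adjusted p = 0.208). Of the 23 tested genes, 5 had an unadjusted p under 0.05 by edgeR at 35 against 11.8 mM (10.5% of all genes). At 20 against 11.8 mM there was 1 (7.97%), and at 35 against 20 mM there were 3 (5.29%). Over these 23 genes the log2 fold changes ran in both directions, with 12 positive and 11 negative and a median of 0.03 at 35 against 11.8 mM. The summed level of the 54 genes was 531 to 679 CPM at 11.8 mM, 613 to 660 CPM at 20 mM and 710 to 728 CPM at 35 mM, so that the 35 mM libraries lay above all others. This sum was not tested, and abundant genes weigh most in it. Shisa5 alone averaged 48.5 CPM at 11.8 mM and 78.8 CPM at 35 mM. Of 13 symbols listed for genes of nucleic acid sensing, aliases included, 10 were found and 3 tested. None of the 3 was called by edgeR or DESeq2 or had an unadjusted p under 0.05.

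Sums of the markers of some other cell types also averaged lower at 20 and 35 mM, with ranges that overlapped those at 11.8 mM. Other sums averaged higher. Duct markers averaged 994 CPM at 11.8 mM, 1139 CPM at 20 mM and 1304 CPM at 35 mM, and acinar markers 7903, 10277 and 9100 CPM. The 12 markers of fibroblasts and stellate cells summed to 447 to 786 CPM at 11.8 mM, 342 to 547 CPM at 20 mM and 301 to 549 CPM at 35 mM, and the 12 endothelial markers to 24.8 to 33.6, 18.5 to 25.3 and 19.6 to 25.3 CPM. Of the 12 fibroblast markers 9 were tested, of the 12 endothelial ones 5, and none was called by edgeR, and Kdr, Tek and Vwf, which mark endothelium, were at 0 in 5 or more libraries. Immune markers summed to 189 to 222 CPM in the 11.8 mM libraries, and at 35 mM to 133 and 169 CPM in replicates 2 and 3 and 245 CPM in replicate 1. Of the 15 tested, 12 had a negative log2 fold change at 35 against 11.8 mM (median -0.20) and 13 at 20 against 11.8 mM (median -0.25), and none was called by edgeR. The part of these cell types in the lower values of the tested interferon genes was not tested.

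NF-kB genes stayed within the spread between libraries. Nfkbia, the inhibitor that NF-kB itself induces, had 42.4, 25.9 and 27.7 CPM at 11.8 mM, 31.7, 29.8 and 24.5 CPM at 20 mM, and 39.7, 28.5 and 29.5 CPM at 35 mM. The range at 11.8 mM enclosed all but 1 of the other libraries, and the fold at 35 against 11.8 mM was 1.02 with a 95% interval of 0.781 to 1.34 (adjusted p = 0.983, edgeR). Nfkb1, which encodes a DNA-binding subunit, averaged 14.0 ± 2.43 CPM at 35 mM and 12.6 ± 3.26 CPM at 11.8 mM (SD, n = 3 each), a fold of 1.12 with an interval of 0.808 to 1.56. For Rela, the subunit that activates transcription, the means were 3.19 ± 0.272 CPM at 35 mM and 3.15 ± 0.987 CPM at 11.8 mM. Over the 3 tested genes the median log2 fold change was 0.03 at 35 against 11.8 mM and 0.06 at 20 against 11.8 mM.

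Of 54 other genes of the NF-kB pathway and its targets, 33 were tested and none was called by edgeR or DESeq2. By edgeR, 5 had an unadjusted p under 0.05 at 35 against 11.8 mM (10.5% of all genes) and 4 at 20 against 11.8 mM (7.97%). Il1r1, the receptor of interleukin 1, averaged 41.1 ± 2.91 CPM at 35 mM and 28.0 ± 2.50 CPM at 11.8 mM (SD, n = 3 each; log2 fold change 0.55 ± 0.16, unadjusted p = 0.00212, adjusted p = 0.134, edgeR). Tlr3, a receptor for viral RNA, averaged 3.47 ± 1.64 CPM at 20 mM and 0.989 ± 0.747 CPM at 11.8 mM (log2 fold change 1.71 ± 0.59, adjusted p = 0.351). Taking all 5 wider lists together, 165 symbols were listed, aliases included, and 159 genes were found and 90 tested. The median log2 fold change of the 90 was -0.07 at 35 against 11.8 mM and -0.10 at 20 against 11.8 mM.

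Chemokines and cytokines were scarce. Only Ccl2, which attracts monocytes, and Il1b, the precursor of interleukin 1 beta, were tested. Ccl2 had 10.9, 3.94 and 2.04 CPM at 11.8 mM, 8.93, 8.84 and 2.26 CPM at 20 mM, and 6.98, 4.94 and 5.11 CPM at 35 mM. Libraries at 11.8 mM differed from one another more than the concentrations did, and the fold at 35 against 11.8 mM was 1.01 with a 95% interval of 0.400 to 2.54. Il1b averaged 6.10 ± 1.44 CPM at 35 mM and 5.58 ± 2.07 CPM at 11.8 mM (SD, n = 3 each), with a log2 fold change of 0.10 ± 0.33 (adjusted p = 0.958, edgeR). Il1b exons overlap an antisense gene, Il1bos.

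Defb1 was the one member called, at 35 against 11.8 mM. Defb1 (chr8:21776599-21795185, plus strand) encodes a beta-defensin, an antimicrobial peptide secreted by epithelia. It had 19.5, 16.0 and 22.1 CPM at 11.8 mM, 11.4, 19.2 and 11.6 CPM at 20 mM, and 11.0, 6.39 and 7.67 CPM at 35 mM. The 35 mM libraries lay below all others, and the 20 mM libraries overlapped those at 11.8 mM. At 35 against 11.8 mM Defb1 fell by 1.18 ± 0.25 on the log2 scale (SE; adjusted p = 0.0106, edgeR), to 0.440 of the 11.8 mM level with a 95% interval of 0.308 to 0.627. The log2 fold change was -0.43 ± 0.23 at 20 against 11.8 mM (adjusted p = 0.673) and -0.75 ± 0.26 at 35 against 20 mM (unadjusted p = 0.00670, adjusted p = 0.905).

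Sub-libraries of Defb1 overlapped between the concentrations. Scaled to CPM of the gene reads of each, they ran from 1.57 to 15.2 at 35 mM and from 12.2 to 30.4 at 11.8 mM. In reads, those at 35 mM held 9, 16 and 16 in replicate 1, 14, 6 and 2 in replicate 2, and 6, 11 and 10 in replicate 3. Those at 11.8 mM held 20, 23 and 30 in replicate 1, 11, 27 and 31 in replicate 2, and 27, 25 and 24 in replicate 3. The call rested on these few reads, and it was lost without the 11.8 mM library of replicate 3 (adjusted p = 0.0785), the 35 mM library of replicate 2 (0.117) or that of replicate 3 (0.0617), though the log2 fold change stayed between -1.44 and -1.03 under all 19 alternatives that gave it an adjusted p. Summed levels of 12 duct markers were 1252 to 1391 CPM at 35 mM and 676 to 1446 CPM at 11.8 mM, and those of 22 acinar markers 7717 to 11669 CPM and 4172 to 14689 CPM. In bulk islets, fewer cells of a type and less RNA per cell cannot be told apart.

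Lcn2 and C3 were high in 1 library at 35 mM. Lcn2, a lipocalin that withholds iron from bacteria, had 28.5, 35.0 and 16.9 CPM at 11.8 mM, 35.4, 21.0 and 27.1 CPM at 20 mM, and 81.6, 11.6 and 26.7 CPM at 35 mM. Both the highest and the lowest of the 9 libraries were at 35 mM. C3, the central component of complement, had 7.46, 8.33 and 5.54 CPM at 11.8 mM, 11.4, 9.10 and 6.20 CPM at 20 mM, and 23.3, 6.39 and 5.97 CPM at 35 mM. Neither passed the test at 35 against 11.8 mM, with log2 fold changes of 0.57 ± 0.69 for Lcn2 (adjusted p = 0.870, edgeR) and 0.74 ± 0.52 for C3 (adjusted p = 0.705). Without the 35 mM library of replicate 1 the signs turned, to -0.49 for Lcn2 (adjusted p = 0.817) and -0.22 for C3 (adjusted p = 0.935).

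The high Lcn2 level was shared by the 3 sub-libraries of that library, which held 83, 127 and 94 reads, against 17, 10 and 13 in replicate 2 and 40, 19 and 35 in replicate 3 at 35 mM. For C3 the 3 sub-libraries held 22, 27 and 38 reads. Spread was measured as chi-square per degree of freedom, which is near 1 when counts differ by sampling alone. For Lcn2 it was 0.897 between sub-libraries of a library and 46.1 between libraries of a concentration, and for C3 1.25 and 11.0. B2m also differed far more between libraries, with 2.09 within and 30.5 between them. The class I heavy chains had the highest values within libraries of all members. They were 4.66 within and 10.5 between for H2-D1, and 5.10 and 7.22 for H2-K1. For Defb1 the values were 1.41 within and 3.20 between libraries, and for Irf1 2.48 within and 1.30 between. That same library had the highest Cd74 and class II sum, a sum of the 15 other immune markers within the range of the other libraries, and the lowest sum of fibroblast markers, 301 CPM. This 35 mM library of replicate 1 also had the highest share of counted reads not aligned to a single place, 22.6%. The 11.8 mM library of replicate 1 had 21.9%. Its share of reads in no annotated gene, 5.79% in the 35 mM library of replicate 1, was the lowest. The part of these traits in the Lcn2 and C3 levels of the 35 mM library was not tested.

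**Figure D4:**
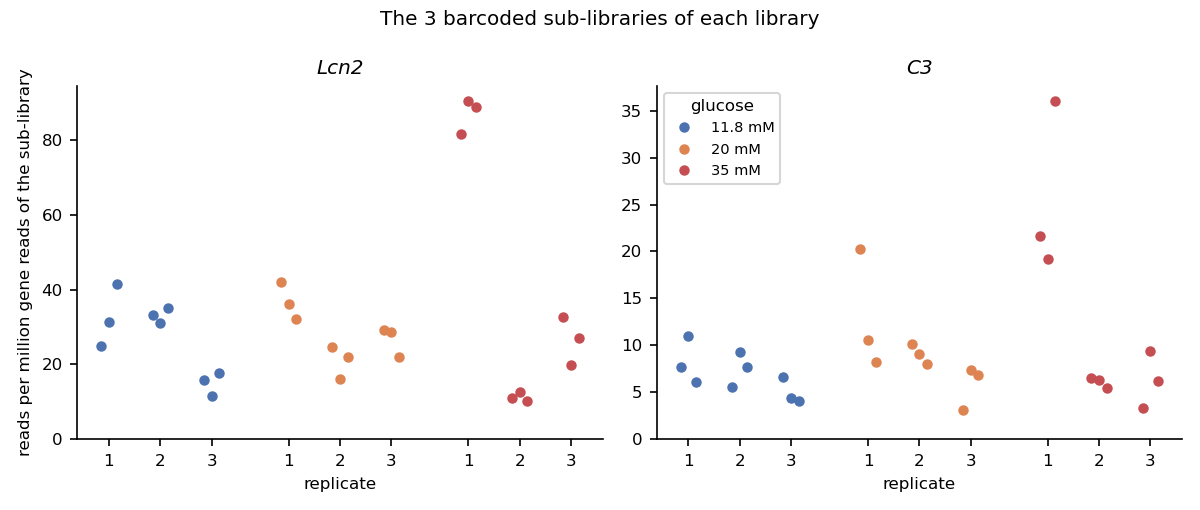
Reads of Lcn2 (left) and C3 (right), scaled to CPM of gene reads, in each of the 27 sub-libraries, grouped by library and coloured by glucose. The 3 sub-libraries of the 35 mM library of replicate 1 lie above all others for Lcn2, and they are also high for C3, where 1 sub-library at 20 mM overlaps them.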

How the data were processed

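The authors deposited raw counts of reads for each gene in each sub-library. Per the submitters' processing notes, cutadapt, TopHat, HTSeq and DESeq2 were used with the GRCm38.p4 build, and for versions, annotation and strand setting the sources used here give nothing. Reads had not been collapsed by molecular identifier, since 16 genes passed 4096, the number of identifiers that 6 bases allow, and the largest value was 605402. Reads are therefore not independent molecules.

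Through the deposited sample sheet the 27 sub-libraries were summed to 9 libraries. Another 30 columns matched no sample label and were left unused. Library sizes and tests left out the 92 spike-ins and 5 summary lines, which held 19.6% to 29.9% of counted reads. Symbols and positions came from GENCODE M21, with 21781 of 22048 genes matched.

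Tests used R 4.3.3 and edgeR 4.0.16 (limma 3.58.1) with TMM, filterByExpr by group, 1 mean per concentration over 9 libraries, 6 residual degrees of freedom and the robust quasi-likelihood test, two-sided, adjusted over 9739 genes. The method was tested on counts simulated with known changes at 35 against 11.8 mM. It called 15.1% of 1.5-fold changes, 58.9% of 2-fold changes, 92.2% of 4-fold changes and 0.0678% of unchanged genes. Alternatives were DESeq2 1.42.0 (its size factors, and its Wald test), a filter of 10 CPM in 3 libraries or none, fits of 2 concentrations, a replicate block, removal of the 20 most abundant genes, and each library or sub-library position left out. DESeq2 on the genes of the expression filter was added after the data were seen.

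Members, gene lists and tests were chosen with earlier results of these data known. Values in every library were set for members called or with an unadjusted p under 0.05, for the highest member of each group by mean CPM, and for wider lists their called genes or the 2 with the smallest p. Zc3hav1 and Mavs, which that rule also names, had log2 fold changes of -0.11 and 0.01 at 35 against 11.8 mM. Values of Tapbp, B2m, H2-K1, Irf9, Usp18, C3, Cd74 and Ms4a1 were chosen after they were seen. The values of 1 gene of the wider lists are not reported here, but counts and sums include it.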

Additional observations from a re-analysis of the deposited data

How the results depend on the processing

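Over 20 alternatives the 20 tested members gave 1110 values with an adjusted p, of which 1105 stayed on the same side of the threshold. The other 5 lost the call of Defb1 at 35 against 11.8 mM, while 0 gained a call and 0 called values reversed. The 16 genes too low to test are not among these values. Members called at 35 against 11.8 mM numbered 1 in the main setting and 0 with the first or the third sub-library of each library left out (Defb1 adjusted p = 0.0593 and 0.0961, edgeR). They also numbered 0 by the DESeq2 Wald test with its own filtering, which gave Defb1 no adjusted p (unadjusted p = 0.000136). With each library left out they numbered 0 to 1. On the genes of the expression filter DESeq2 called Defb1 (adjusted p = 0.0127). At 20 against 11.8 mM and at 35 against 20 mM members called numbered 0 in every alternative run.

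Over all genes, calls at 35 against 11.8 mM were 84, with 148 without a filter, 39 with the third sub-library left out and 41 to 138 with each library left out. At 20 against 11.8 mM they were 18, with 51 without a filter, 52 by the DESeq2 Wald test, 34 by DESeq2 on the genes of the expression filter, 11 in the fit of 2 concentrations, 11 with the second sub-library left out and 7 to 35 with each library left out. At 35 against 20 mM they were 3, with 5 and 1 with the first and the third sub-library left out and 1 to 7 with each library left out. The cause of these differences was not tested.

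With the replicate number as a block, calls were 74, 13 and 3 in the 3 comparisons, and Defb1 kept its call (adjusted p = 0.0239, edgeR). Deviations of same-numbered libraries from their group means had correlations of -0.146 to 0.0459, against -0.159 to 0.163 for libraries of other numbers, so the numbers were not taken as pairs. Depth limits the 16 genes too low to test, which had at most 14 reads in any library.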
